A study of Mus musculus with 12 samples.

Results

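The genes described here encode the proteins that build the apical face of an epithelium. They are *Ezr*, *Msn* and *Rdx* for ezrin, moesin and radixin (the ERM proteins), *Slc9a3r1* for the scaffold NHERF1, *Pard3* and *Pard6b* for the scaffolds of the Par complex, and *Prkci* and *Prkcz* for its atypical protein kinase C (aPKC) subunits. These 8 genes were taken by symbol from a table of 34245 genes, and each was found at a single row. The libraries came from mouse embryos of superovulated F1 hybrid (C57Bl6 x CBA/W) females mated with F1 males. These embryos were isolated at E1.5 and cultured in KSOM+AA medium. At E3.5, the blastocyst stage, embryos were moved to medium with the solvent DMSO alone (control), or with SB220025 at 20 µM, a compound that inhibits p38 mitogen-activated protein kinases (p38-MAPKi), and were collected after 4, 7 or 10 h. Times below are hours after E3.5. Each library was made from the poly(A) RNA of a pool of 30 whole blastocysts, with 2 libraries in each of the 6 groups, so all cell types of the blastocyst were measured together. The contrast between groups was thus the inhibitor in its solvent against the solvent, with no genetic change of p38-MAPK.

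In the mouse blastocyst the outer cells form the trophectoderm, a sealed epithelium whose free surface carries microvilli. ERM proteins tie the actin filaments of that surface to the plasma membrane, and NHERF1 joins them to channels, transporters and receptors through its PDZ domains. PARD3, PARD6 and aPKC mark the apical domain from the time of compaction onwards. The polarised outer cells keep Hippo signalling low, so that YAP enters the nucleus and works with TEAD4 on trophectoderm genes such as *Cdx2*.

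The promoters of the ERM genes are shown first, because these paralogues encode closely related proteins and their mRNAs stood differently in the p38-MAPKi libraries. Each is the RefSeq sequence from 250 bases before to 50 bases after the start site nearest to the gene's start in the deposited table (GRCm38.p6), written 5′ to 3′ on the gene's own strand. The *Msn* promoter lies at chrX:96095795-96096094 on the plus strand, the *Ezr* promoter at chr17:6782731-6783030 on the minus strand, and the *Rdx* promoter at chr9:52046900-52047199 on the plus strand. Capitals mark matches, on either strand, to the SP/KLF letters GGGCGG and the AP-1 letters TGANTCA. The TEAD letters GGAATG were also searched, and no match overlapped another.
Msn: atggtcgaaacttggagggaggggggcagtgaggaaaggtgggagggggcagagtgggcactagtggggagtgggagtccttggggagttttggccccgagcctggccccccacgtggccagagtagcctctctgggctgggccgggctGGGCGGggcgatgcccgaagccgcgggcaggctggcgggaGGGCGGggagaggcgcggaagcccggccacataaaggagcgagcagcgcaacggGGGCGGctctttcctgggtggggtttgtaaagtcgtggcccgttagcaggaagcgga
Ezr: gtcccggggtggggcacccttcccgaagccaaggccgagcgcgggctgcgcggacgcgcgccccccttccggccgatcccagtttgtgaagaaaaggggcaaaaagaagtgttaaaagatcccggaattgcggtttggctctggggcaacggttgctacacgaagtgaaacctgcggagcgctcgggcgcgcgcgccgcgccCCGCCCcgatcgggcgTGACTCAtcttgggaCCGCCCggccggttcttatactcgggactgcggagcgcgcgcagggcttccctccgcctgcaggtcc
Rdx: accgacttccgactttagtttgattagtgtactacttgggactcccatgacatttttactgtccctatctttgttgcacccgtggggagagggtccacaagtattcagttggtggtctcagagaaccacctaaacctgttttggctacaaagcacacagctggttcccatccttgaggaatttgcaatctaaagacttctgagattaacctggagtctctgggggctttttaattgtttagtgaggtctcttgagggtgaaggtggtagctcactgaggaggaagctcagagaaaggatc
The *Msn* window had a GC content of 69.0% with 21 CG dinucleotides and 3 SP/KLF matches. The *Ezr* window had 68.0% GC with 38 CG dinucleotides, 2 SP/KLF matches and 1 AP-1 match. The *Rdx* window had 46.3% GC with 3 CG dinucleotides and held none of the 3 motifs. RefSeq listed 2 promoters for *Rdx*, and 1 each for *Msn* and *Ezr*. The other *Rdx* promoter is not shown, and which start blastocysts use was not tested. Of 32851 RefSeq promoter windows of the same 300 bases, 35.7% held the SP/KLF letters, 7.81% the AP-1 letters and 14.7% the TEAD letters. These matches describe the letters of the windows and were not compared with binding data.

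Depth lay between 11242313 reads (p38-MAPKi at 7 h, replicate 1) and 24457312 reads (p38-MAPKi at 10 h, replicate 2). Pearson's r between the log2 values of the replicates, over 12374 genes, was 0.966 to 0.977 in 5 groups and 0.903 in the p38-MAPKi group at 7 h, so that group stood apart from the rest. Its shallower library still held 1153 reads of *Msn*, the member whose difference from control was widest. Values are given in RPKM (reads per kilobase of exons, scaled to the depth of the library), which allows levels of different genes to be compared. Differences are given as the log2 fold change of the deposited log2 RPKM. A change is called only where the adjusted p of limma over all genes tested was under 0.05. The p-values rest on the spread between pools of the same collection scheme, drawn for each gene toward that of genes of like level. For p38-MAPKi at 4 h and control 7 h against 4 h, limma used the spread of genes of like level alone, not the gene's own. No spike-in was used, so all values are relative to the total mRNA of a library, and in whole blastocysts fewer cells of a type cannot be told apart from less of an mRNA per cell.

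All 8 genes were detected in every library and all 8 passed the filter of at least 1 RPKM in at least 2 libraries in every comparison. By mean level over the 12 libraries, *Slc9a3r1* ranked 380th and *Ezr* 825th among all genes of the table. *Msn* (1619th), *Rdx* (1631st) and *Pard6b* (1732nd) lay close together, followed by *Prkci* (2492nd), *Pard3* (4636th) and *Prkcz* (5080th). In control at 4 h, this order ran from 104 ± 15 RPKM for *Slc9a3r1* and 60.5 ± 14.2 RPKM for *Ezr* (SD, n = 2) down to 10.0 ± 1.3 RPKM for *Pard3* and 8.99 ± 1.60 RPKM for *Prkcz* (SD, n = 2). The libraries of *Msn* in that group spanned those of *Rdx* and *Pard6b*, and the levels of *Pard3* and *Prkcz* overlapped. Thus the most abundant mRNAs of the set encoded NHERF1 and ezrin, and those of the Par scaffold PARD3 and of aPKC zeta were the least abundant.

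**Figure D1:**
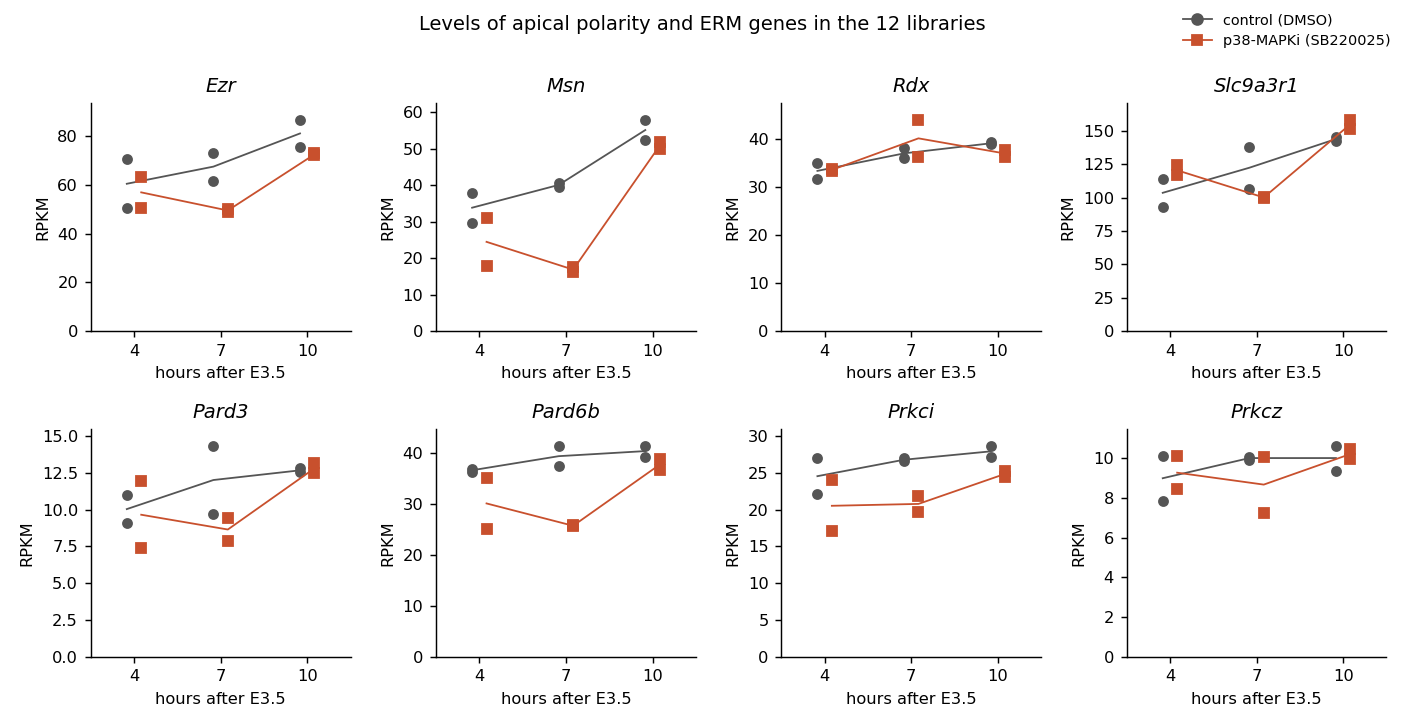
Level of each gene in each library, in RPKM on a linear axis that starts at 0, against hours after E3.5. Circles are control (DMSO) libraries, squares are p38-MAPKi libraries, lines join the means of the 2 libraries, and points are set slightly apart along the time axis for legibility. *Msn* at 7 h shows the widest gap, with p38-MAPKi libraries at 16.2 and 17.5 RPKM and controls at 39.5 and 40.7 RPKM.

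The question of the p38-MAPKi comparison is how inhibition for 4, 7 or 10 h alters the blastocyst transcriptome, here for the apical genes. At 7 h *Msn* fell by 1.25 on the log2 scale, and the other 7 genes did not pass the threshold at any time. Of the 8 genes, 1 was called at 7 h, where 2.13% of 10940 genes were called. None of the 8 was called at 4 h (limma, 0.909% of 10781 genes) or at 10 h (limma, 0.803% of 10959 genes). At an unadjusted p under 0.05 the counts were 1 of 8 at 4 h (9.42% of all genes), 3 of 8 at 7 h (28.4%) and 0 of 8 at 10 h (19.8%). The 3 of 7 h were *Msn*, *Pard6b* and *Ezr*, all on the lower side, and a count of 3 of 8 lies near the share over all genes.

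The libraries of the groups were also set against each other without a test. At 7 h both p38-MAPKi libraries lay below both controls for 6 of the 8 genes, as they did for 38.7% of all genes, and for none of the 8 did they lie above both controls (23% of all genes). At 4 h *Pard6b* lay below (13.7% of all genes) and *Slc9a3r1* above (26.8%), while the libraries of the other 6 genes overlapped. At 10 h 5 genes lay below (29.6% of all genes) and *Slc9a3r1* above (22.6%). The median log2 fold change of the 8 genes was -0.08, -0.41 and -0.09 at the 3 times, beside medians over all genes of 0.07, -0.14 and -0.02.

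**Figure D2:**
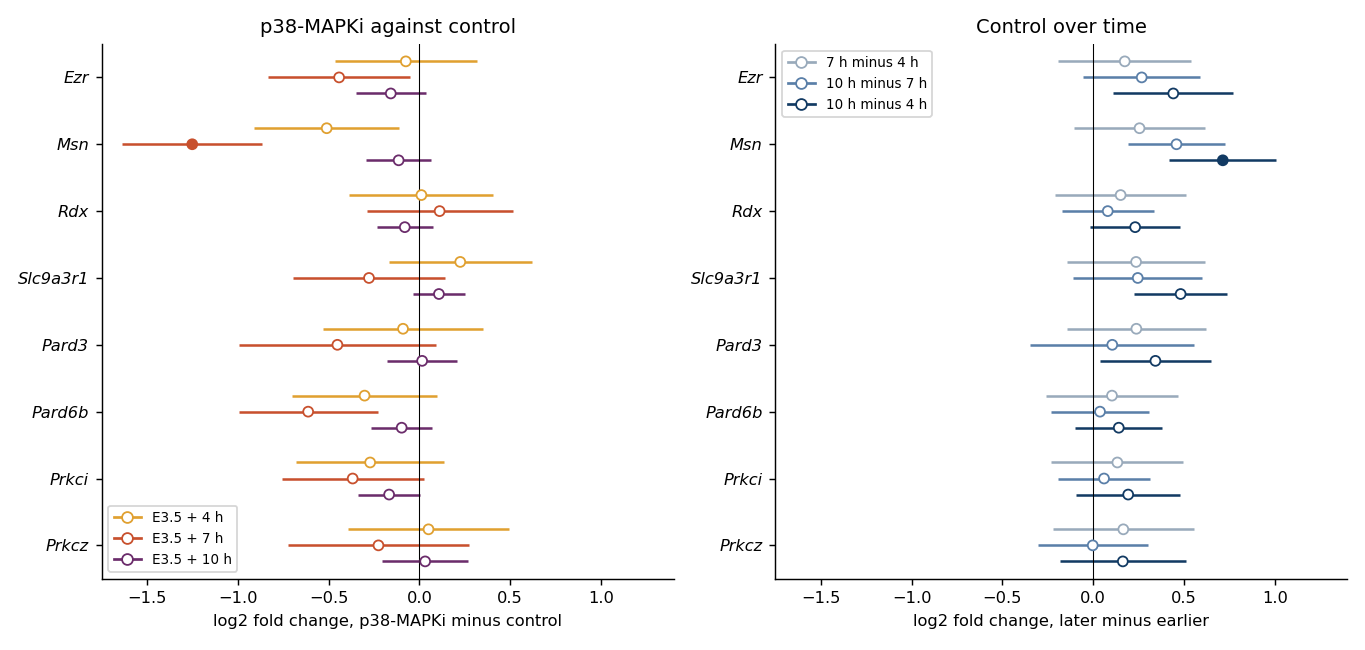
Log2 fold change of each gene with its 95% confidence interval from limma. The left panel compares p38-MAPKi with control at each time, the right panel compares control time points, and filled circles mark an adjusted p under 0.05. Only *Msn* has filled circles, at -1.25 for p38-MAPKi at 7 h and at 0.71 for control at 10 h against 4 h.

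Moesin is the ERM protein encoded on the X chromosome (GRCm38 chrX:96096042-96168552, plus strand). In control, *Msn* measured 29.7 and 37.96 RPKM at 4 h, 39.5 and 40.7 RPKM at 7 h, and 52.4 and 58.0 RPKM at 10 h. With p38-MAPKi it measured 31.1 and 17.9 RPKM, 16.2 and 17.5 RPKM, and 52.0 and 49.8 RPKM at the same times. The groups overlapped at 4 h, stood far apart at 7 h and lay close together, without overlap, at 10 h. The log2 fold change at 7 h was -1.25 (SE 0.17, 95% interval -1.64 to -0.87, adjusted p = 0.0391 by limma), and 2.88% of the genes tested had a lower value. Where a library is left out, its group keeps 1 library, which is assumed to vary like the remaining groups, so such p-values show only how a call moves. Without replicate 1 of p38-MAPKi, the shallow library, it was -1.20 (adjusted p = 0.00522 by limma), and without replicate 2 of control it was -1.23 but no longer called (adjusted p = 0.241 by limma). The call was also lost without the mean-variance trend (adjusted p = 0.158 by limma) and with libraries centred on their median (-1.06, adjusted p = 0.0694 by limma).

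At 4 h the log2 fold change of *Msn* was -0.51 (SE 0.20, adjusted p = 0.303 by limma), and its replicates disagreed. With only replicate 2 of p38-MAPKi it became -0.91 (adjusted p = 0.00609 by limma, the spread coming from the controls), and with only replicate 1 it became -0.11 (adjusted p = 0.998). At 10 h it was -0.11 (SE 0.07, adjusted p = 0.434 by limma), with a 95% interval of -0.29 to 0.06. The difference seen at 7 h was thus of a size that the interval at 10 h did not contain.

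Ezrin (GRCm38 chr17:6738041-6782784, minus strand) is the ERM protein most typical of microvilli in polarised epithelia. Control libraries held *Ezr* at 50.4 and 70.6 RPKM at 4 h, 73.4 and 61.7 RPKM at 7 h, and 86.8 and 75.6 RPKM at 10 h. The p38-MAPKi libraries held 63.2 and 50.7 RPKM, 49.0 and 50.0 RPKM, and 72.2 and 73.0 RPKM. They lay below both controls at 7 and 10 h and between them at 4 h. The log2 fold change at 7 h was -0.44 (SE 0.17, adjusted p = 0.140 by limma), and it was -0.08 at 4 h and -0.16 at 10 h.

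Radixin (GRCm38 chr9:52047173-52088735, plus strand), the remaining ERM protein, had the narrowest range of the 3 in control. *Rdx* measured 31.7 and 35.1 RPKM at 4 h, 36.0 and 38.1 RPKM at 7 h, and 39.0 and 39.3 RPKM at 10 h. With p38-MAPKi the values were 33.8 and 33.4 RPKM, 44.1 and 36.3 RPKM, and 36.3 and 37.8 RPKM. At 7 h it was the only member of the set with a fold change above 0, at 0.11 (95% interval -0.29 to 0.51, adjusted p = 0.701 by limma), and its sign at that time turned without replicate 1 of p38-MAPKi (-0.03). At 10 h it was -0.08 (SE 0.06).

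The share of *Msn* in the ERM mRNA was taken within each library. It was 26.4 to 29.0% of the summed RPKM of the 3 genes in the 4 control libraries at 4 and 7 h. The share was 14.8 and 16.9% in the p38-MAPKi libraries at 7 h, the lowest shares among the 12 libraries. Next came replicate 2 of p38-MAPKi at 4 h with 17.5%, while replicate 1 of that group had 24.3%. At 10 h it was 29.4 and 33.5% in control and 32.4 and 31.0% with p38-MAPKi, with overlap. The ratio of *Ezr* to *Msn* in RPKM was 3.03 and 2.86 with p38-MAPKi at 7 h and 1.86 and 1.52 in the controls of that time. These ratios do not depend on the scaling of the libraries, but they carry the difference in exon length described further on.

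**Figure D3:**
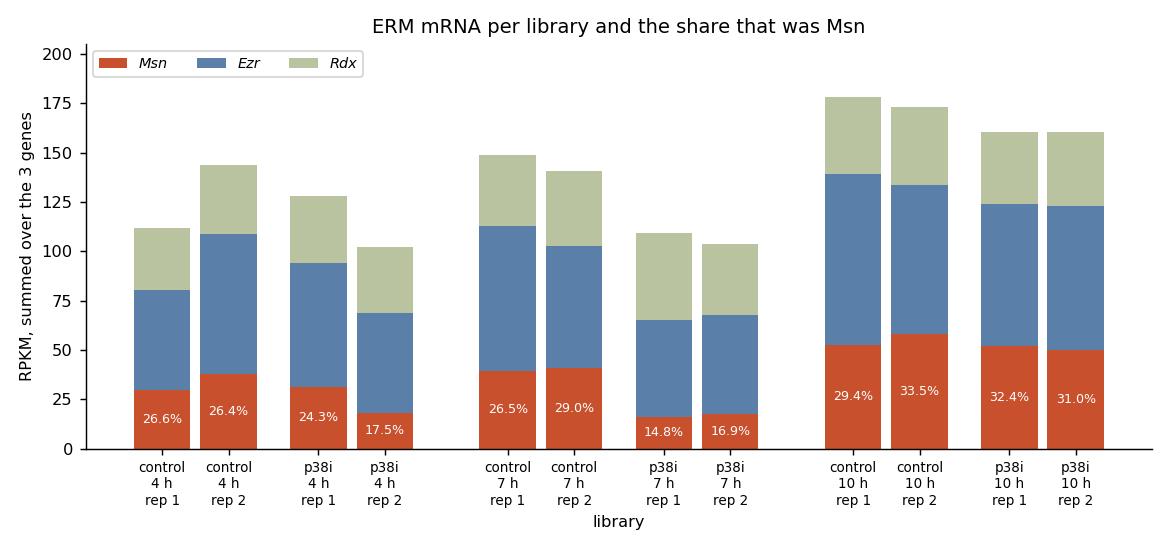
Summed RPKM of *Msn*, *Ezr* and *Rdx* in each library as stacked bars from 0, with the share of *Msn* written as a percentage. Libraries are grouped by time and treatment, and the label p38i stands for p38-MAPKi. The share of *Msn* is lowest, at 14.8 and 16.9%, in the p38-MAPKi libraries at 7 h.

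NHERF1 (GRCm38 chr11:115163341-115181181, plus strand) binds the open form of ERM proteins and is a core component of apical microvilli. *Slc9a3r1* stood at 93.1 and 114 RPKM in control at 4 h, 138 and 107 RPKM at 7 h, and 142 and 146 RPKM at 10 h. With p38-MAPKi it stood at 124 and 117 RPKM, 99.5 and 101 RPKM, and 152 and 158 RPKM. The p38-MAPKi libraries therefore lay above control at 4 and 10 h and below it at 7 h. The log2 fold changes were 0.22, -0.28 and 0.11 in order of time, with standard errors of 0.20, 0.19 and 0.06, and none was called (adjusted p = 0.764, 0.344 and 0.371 by limma).

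PARD6B (GRCm38 chr2:168081004-168101203, plus strand) is the adaptor that brings aPKC to CDC42 and PARD3. *Pard6b* measured 36.3 and 37.0 RPKM in control at 4 h, 37.5 and 41.4 RPKM at 7 h, and 39.3 and 41.5 RPKM at 10 h. With p38-MAPKi it measured 35.1 and 25.2 RPKM, 25.9 and 25.6 RPKM, and 38.9 and 36.7 RPKM. The p38-MAPKi libraries lay below control at all 3 times, and the replicates at 7 h were within 1 RPKM of each other. Its log2 fold change at 7 h, -0.61 (SE 0.17, 95% interval -0.996 to -0.23), came next in size to that of *Msn* and missed the threshold (adjusted p = 0.0679 by limma). Of 14 alternative fits it was called in 5, those with at least 10 RPKM, 12 libraries in 1 fit, the replicate block, voom, and without replicate 2 of p38-MAPKi. It was not called in the other 9, among them median centring (-0.42, adjusted p = 0.144 by limma) and the length trend removed (-0.52, adjusted p = 0.137 by limma).

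PARD3 (GRCm38 chr8:127063893-127612286, plus strand) is the scaffold that places the complex at the apical junctions. *Pard3* measured 9.10 and 11.0 RPKM in control at 4 h, 9.67 and 14.4 RPKM at 7 h, and 12.8 and 12.5 RPKM at 10 h. With p38-MAPKi it measured 11.9 and 7.39 RPKM, 7.86 and 9.44 RPKM, and 13.1 and 12.5 RPKM. Only at 7 h did the groups not overlap, and the log2 fold change there was -0.45 (SE 0.24, adjusted p = 0.246 by limma).

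The kinase subunits are encoded at GRCm38 chr3:30995747-31052959 on the plus strand (*Prkci*) and chr4:155260129-155361361 on the minus strand (*Prkcz*), and neither was called. *Prkci*, the main aPKC gene of the early embryo, measured 27.0 and 26.5 RPKM in control and 21.8 and 19.7 RPKM with p38-MAPKi at 7 h, a log2 fold change of -0.37 (SE 0.17, adjusted p = 0.200 by limma). At 4 h its values were 22.1 and 27.0 RPKM in control and 24.0 and 17.1 RPKM with p38-MAPKi, and at 10 h 28.7 and 27.1 RPKM against 24.4 and 25.3 RPKM, so that p38-MAPKi lay below control at the 2 later times. *Prkcz* lay between 7.26 and 10.6 RPKM in all 12 libraries, with a log2 fold change of 0.05, -0.23 and 0.03 at 4, 7 and 10 h and overlapping libraries at each. The ratio of *Prkci* to *Prkcz* in RPKM was 1.96 to 3.06, with the ends of that range in p38-MAPKi at 7 h and control at 10 h.

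Whether the difference from control itself differed between times was tested as an interaction in the 8 libraries of neighbouring times. Between 10 h and 7 h none of the 8 genes was called by limma (0.00877% of 11400 genes were), and 2 of 8 had an unadjusted p under 0.05 (26.3% of all genes). These were *Msn*, with a difference of the log2 fold changes of 1.14 (SE 0.15, adjusted p = 0.0646), and *Pard6b*, with 0.51 (SE 0.15, adjusted p = 0.0895). Between 7 h and 4 h none was called (0.00884% of 11311 genes were), and 1 of 8 had an unadjusted p under 0.05 (6.83% of all genes), again *Msn* with -0.74 (SE 0.33, adjusted p = 0.661). The change of the *Msn* difference from 7 h to 10 h passed the threshold without replicate 2 of p38-MAPKi at 7 h (1.19, adjusted p = 0.00803 by limma) and without replicate 1 of control at that time (1.16, adjusted p = 0.0273 by limma). In these fits the group concerned keeps 1 library, and no other fit that left out a library passed it.

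In control the question is how the apical genes behave as the blastocyst matures. *Msn* rose by 0.71 on the log2 scale from 4 h to 10 h (SE 0.13, 95% interval 0.42 to 1.01, adjusted p = 0.0493 by limma), with both later libraries above both earlier ones. It was the single member called among 8, beside 0.471% of 10825 genes. The next in size were *Slc9a3r1* at 0.48 (SE 0.12, adjusted p = 0.101), *Ezr* at 0.44 (SE 0.15, adjusted p = 0.226) and *Pard3* at 0.34 (SE 0.14, adjusted p = 0.291), all by limma. With *Msn* these made 4 of 8 at an unadjusted p under 0.05 (15.2% of all genes). The later libraries lay above the earlier ones for 7 of 8 genes, *Prkcz* being the exception, and for 42.3% of all genes. The median of the 8 genes was 0.29 and that of all genes 0.14, so values above 0 were common among the genes tested.

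The call of *Msn* over time in control was narrow. It was lost without replicate 1 of control at 4 h (0.54, adjusted p = 0.0649 by limma), without replicate 1 at 10 h (0.79, adjusted p = 0.0682) and without replicate 2 there (0.64, adjusted p = 0.285). Centring on the median (0.58, adjusted p = 0.0593 by limma), quantile normalization (0.62, adjusted p = 0.0538) and a fit of all 12 libraries (adjusted p = 0.631) also ended it. The steps within this period were smaller. From 4 to 7 h none of the 8 genes was called by limma (0.492% of 10776 genes) and none had an unadjusted p under 0.05 (4.79%), with values of 0.10 to 0.26. The later libraries lay above the earlier ones for 3 of 8 (25.3% of all genes), *Msn*, *Rdx* and *Pard6b*. From 7 to 10 h none was called by limma (0.0552% of 10873 genes), 1 of 8 had an unadjusted p under 0.05 (3.79%), *Msn* at 0.46 (adjusted p = 0.822), and the later libraries lay above for 5 of 8 (18.3% of all genes). These comparisons share control libraries with those of p38-MAPKi, so a low or high control library entered both.

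The length of a gene's exons moved with the p38-MAPKi difference at 7 h. Over the 10940 genes tested, Spearman's rho between exon length and log2 fold change was -0.46, a description across genes that share the libraries, and it was -0.36 at 4 h and 0.06 at 10 h. The median log2 fold change was 0.44 for 1328 genes under 1500 bases, -0.34 for 2413 genes of 5000 to 8000 bases and -0.51 for 1523 longer ones. *Msn* has 6327 bases of exons, and 23.4% of the genes tested were at least as long. With the length trend taken out of each library its log2 fold change was -0.93 and no longer called (adjusted p = 0.105 by limma). *Pard6b* with 3399 bases was then -0.52, and the values of *Pard3* (14506 bases) and *Prkcz* (6318 bases) turned to 0.13 and 0.10. *Rdx* with 4639 bases and *Slc9a3r1* with 1925 bases, the shortest member, lay at 0.11 and -0.28 before that step. The part of exon length in these differences was not tested beyond this step.

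**Figure D4:**
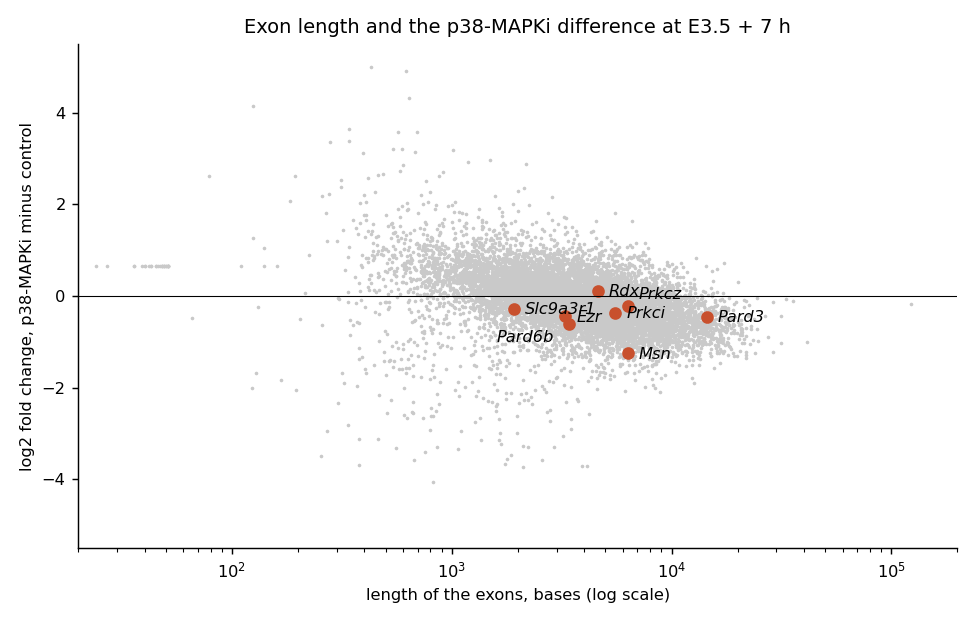
Log2 fold change of p38-MAPKi against control at 7 h for the 10940 genes tested (grey points), against exon length in bases on a log axis, with the 8 genes described here in colour. *Msn*, at 6327 bases and -1.25, lies below most genes of its length, and the row of points at the far left holds short genes among the 25 with no read in the 4 libraries, whose deposited value follows depth alone.

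Since *Msn* is X-linked, *Xist* and Y-linked genes are given beside it. *Xist*, which is transcribed from the inactive X of female cells, measured 40.8 and 38.5 RPKM in control and 20.5 and 17.6 RPKM with p38-MAPKi at 4 h. At 7 h it measured 32.0 and 44.2 RPKM in control and 19.0 and 28.3 RPKM with p38-MAPKi, and at 10 h 32.3 and 35.1 RPKM against 54.1 and 37.8 RPKM. The sum of 4 Y-linked genes was 16.0 and 20.5 RPKM in control and 24.8 and 22.6 RPKM with p38-MAPKi at 4 h, and 20.3 and 16.7 RPKM against 18.8 and 8.05 RPKM at 7 h. At 10 h it was 25.7 and 21.6 RPKM in control and 21.1 and 20.4 RPKM with p38-MAPKi. At 7 h both *Xist* and the Y-linked sum had a lower mean with p38-MAPKi, while at 4 h they stood on opposite sides of control. The median log2 fold change of 345 X-linked genes at 7 h was -0.18, beside -0.14 for all genes, and that of 331 such genes at 4 h was -0.10, beside 0.07. The share of female embryos in a pool was not given, and its part in the *Msn* values was not tested.

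The other genes of apical and basolateral polarity, 62 in 6 lists, showed no call at 7 h in any list. Not all of the 62 passed the filter. All 10 basolateral genes, which oppose the apical complexes, had p38-MAPKi libraries below control, with a median of -0.58, and 8 of them had an unadjusted p under 0.05 (28.4% of all genes). Among them *Scrib* was at -0.67, *Llgl1* at -0.60 and *Llgl2* at -0.57 (adjusted p = 0.0822, 0.0910 and 0.0855 by limma). The Crumbs complex, a second apical module, had 5 of 9 genes tested, all with libraries below control and a median of -0.46. Its most abundant members were *Crb3* at -0.25, *Lin7c* at -0.22 and *Epb41l5* at -0.46. The median of all genes at that time was -0.14, and libraries lay below control for 38.7% of them, as given above. The basolateral genes had 4356 to 9700 bases of exons. Over all genes the median was -0.15 at 3000 to 5000 bases, -0.34 at 5000 to 8000 bases and -0.51 above that. The part of exon length in the values of the 6 lists was not tested.

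Of the genes that control ERM proteins, 12 of 13 were tested, with a median of -0.49. At an unadjusted p under 0.05, 7 were lower and 1 higher, beside 28.4% of all genes in either direction. The higher gene passed the filter only through its p38-MAPKi libraries (1.66 and 1.98 RPKM, against 0.29 and 0.72 RPKM in control). Its direction was thus set by the filter and is not counted as a result. *Cdc42bpb*, which encodes a kinase of the CDC42 pathway, was at -0.73 (adjusted p = 0.0641 by limma), while *Rhoa* and the phosphatase subunit *Ppp1ca* were at -0.05 and 0.12. Of the other Par complex genes, 7 of 8 were tested with a median of -0.04. *Wwc1*, which encodes the aPKC partner KIBRA, was at -0.80 (adjusted p = 0.0572 by limma), *Cdc42* at 0.10 and *Stk11* at -0.04. The microvillus and apical actin genes had 6 of 11 tested and a median of -0.25, with *Actr2* at -0.38, *Fscn1* at -0.16 and *Capzb* at 0.16.

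Membrane proteins that bind ERM proteins or NHERF1 had 4 of 11 genes tested at 7 h. At an unadjusted p under 0.05, 3 were lower and 1 higher, beside 28.4% of all genes in either direction. The phosphate transporter gene *Slc34a2* was at -0.73 (adjusted p = 0.0537) and the PDZ scaffold gene *Pdzk1* at -0.66 (adjusted p = 0.0925), both by limma. *Pdzk1ip1*, whose product binds that scaffold, was at 1.02 (adjusted p = 0.101 by limma). At 10 h the calls among the tested genes of these 62 were 2, both of genes with low levels, beside 0.803% of all genes tested. No gene was called at that time with 12 libraries in 1 fit or with no filter, so both calls end there. *Pdzk1ip1* measured 8.43 and 8.90 RPKM with p38-MAPKi and 4.87 and 5.53 RPKM in control, a rise of 0.74 (adjusted p = 0.0482 by limma). *Pard6g*, a paralogue of *Pard6b*, measured 4.70 and 4.27 RPKM with p38-MAPKi and 2.39 and 2.32 RPKM in control, a rise of 0.93 (adjusted p = 0.0482 by limma). Thus at 10 h the paralogue was higher with p38-MAPKi while *Pard6b* itself was at -0.10 (adjusted p = 0.477 by limma).

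**Figure D5:**
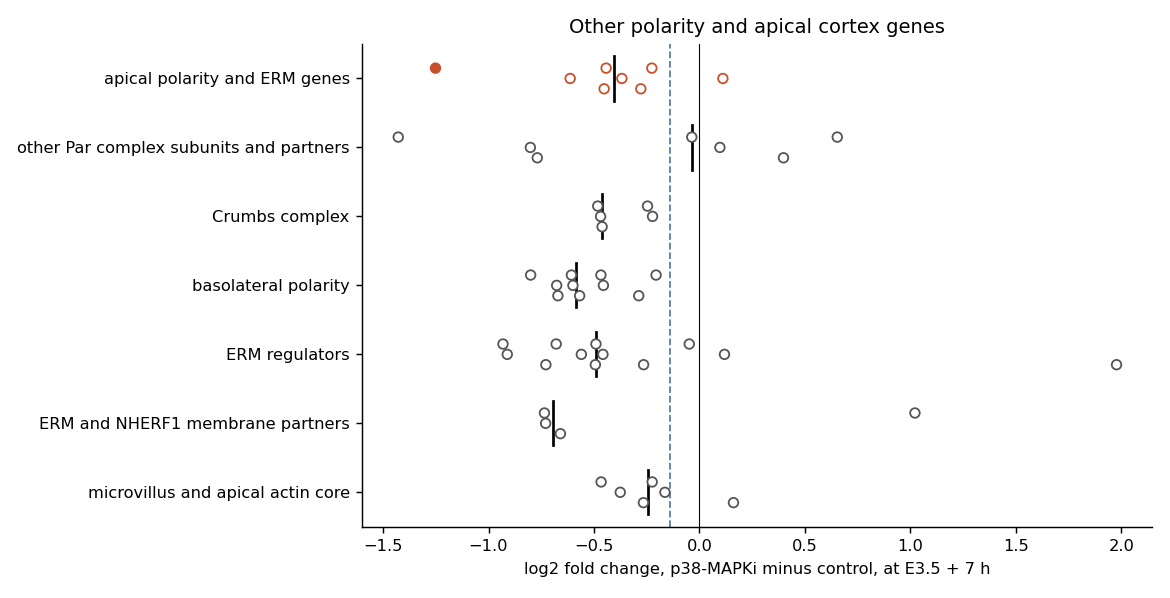
Log2 fold change of p38-MAPKi against control at 7 h for each tested gene (circles, filled where the adjusted p was under 0.05) of the set described here and of 6 other lists, with a black bar at each list's median. The dashed line is the median of all genes, -0.14, and the filled circle is *Msn* at -1.25.

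Cell type markers were set beside these values. The 5 trophectoderm markers summed to 2038 to 2186 RPKM with p38-MAPKi and 1780 to 2360 RPKM in control at 7 h, with overlap, and were all present in every group. Within that list the sum was carried by the keratins *Krt18* (0.16) and *Krt8* (0.08), while *Cdx2* was at -0.49 (adjusted p = 0.127 by limma). *Gata3*, named after its values were seen, was at -0.68 (adjusted p = 0.0652 by limma) and *Tfap2c* at -0.18, so 3 of the 5 had values below 0. *Cdx2* and *Gata3* were the 2 of 5 with an unadjusted p under 0.05 (28.4% of all genes), and neither was called. In control the trophectoderm sum was 1712 to 1863 RPKM at 4 h and 2294 to 2515 RPKM at 10 h, without overlap. The sum thus moved in the same direction as *Msn* over time. That rise lay mostly in *Krt18* (means of 949 and 1342 RPKM) and *Krt8* (493 and 695 RPKM). Libraries at 10 h lay above those at 4 h for 4 of the 5 markers, and for 42.3% of all genes. The exception was *Cdx2*, with means of 207 and 206 RPKM. At 7 h the sums of the 5 epiblast and inner cell mass markers overlapped. They were 635 to 669 RPKM with p38-MAPKi and 589 to 643 RPKM in control. The most abundant of these markers, *Pou5f1*, was at 0.18. The median of the 5 was -0.25, with *Nanog* at -0.09 and *Sox2* at -0.37. The 4 primitive endoderm markers summed to 91.8 to 94.1 RPKM with p38-MAPKi and 116 to 141 RPKM in control at that time. Most of this sum was *Gata6*, at 80.9 and 85.0 RPKM with p38-MAPKi and 101 and 129 RPKM in control. The p38-MAPKi libraries lay below control for 3 of the 4 genes (38.7% of all genes), and those of *Sox17* overlapped control. The part of cell numbers in the member values was not tested.

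Cells other than those of the embryo left little trace. The 4 cumulus markers summed to 0.133 to 0.881 RPKM over all libraries, with none at 1 RPKM. Their reads came from *Amh* alone, and *Tnfaip6* and *Ptx3* had no read in any library. The 4 erythroid markers summed to 0.185 to 1.13 RPKM. *Hba-a1* had the highest mean level among them, while *Hba-a2* and *Hbb-bs* had no read in any library. Values of genes with no read follow exon length and depth alone. Of the 3 leukocyte markers *Ptprc* and *Tyrobp* had no read in any library, and *Cd68*, a lysosomal gene that other cells also express, made up nearly all of a sum of 2.73 to 7.55 RPKM. *Cd68* was called in control over time, at 1.19 from 4 h to 10 h (adjusted p = 0.0104 by limma), and with p38-MAPKi at 4 h, at 1.06 (adjusted p = 0.0188 by limma). At 4 h no gene was called with median centring, quantile normalization, no filter, 12 libraries in 1 fit or the length trend removed, and over time in control none was called with 12 libraries in 1 fit.

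The members did not all vary together across the 12 libraries. On log2 values centred on the library median, Pearson's r was 0.86 between *Msn* and *Ezr* and also 0.86 between *Msn* and *Pard6b*, the highest pairs of the set, while *Rdx* had an r of -0.52 with *Prkcz* and -0.40 with *Msn*. Among 9388 genes with at least 1 RPKM in all 12 libraries, the closest to *Msn* were *Myh10* (0.98) and *Sfmbt2* (0.98), and the closest to *Pard6b* were *Fnip1* (0.99) and *Tet2* (0.98). The closest to *Ezr* were *Galnt1* (0.93) and *Pdzk1* (0.91), to *Slc9a3r1* *Gnai2* (0.95) and *Dppa1* (0.95), and to *Pard3* *Nek9* (0.95) and *Elmsan1* (0.94). *Prkci* was closest to *CN725425* (0.93) and *Adnp2* (0.93), *Rdx* to *Vps4a* (0.92) and *Galk2* (0.92), and *Prkcz* to *Ptpn6* (0.91) and *Golga5* (0.86). These values of r are descriptions over libraries that share treatment, depth and the length trend.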

How the data were processed

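Poly(A) RNA of pools of blastocysts was sequenced from a single end. According to the labels and methods, the authors trimmed reads with Trim Galore 0.4.1, mapped them to GRCm38 with HISAT2 2.0.5, counted them over genes in SeqMonk, tested them with DESeq2, and deposited log2 RPKM for 34245 genes. Strand, isoform and multiple-mapping options of the counting are not given in the sources used here. A gene with no read carries the value of 0.9 of a read. Whole reads and exon lengths were recovered from the deposited values for 34245 genes. The reads serve for depth, the read counts given above and 1 alternative, voom. The lengths serve for the comparisons with exon length and the removal of the length trend.

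The deposited log2 values were compared with limma 3.58.1 (R 4.3.3; eBayes with trend) in the 4 libraries of each two-group comparison, or 8 for interactions, over genes that reached 1 RPKM in 2 or more libraries, with Benjamini-Hochberg adjustment and a threshold of 0.05. For p38-MAPKi at 4 h and for control 7 h against 4 h, limma gave all genes the variance of the trend. The procedure was tested on simulated data. The exon length behind each value equals the union of exons of GENCODE M21 for all 8 genes. *Ezr*, *Msn*, *Pard3*, *Prkci* and *Prkcz* overlap other annotated genes, and sharing of reads was not resolved. Members, lists and tests were chosen with earlier results of these data known. Named are all members, the 3 genes of each other list with the highest mean level, every list gene called in a two-group comparison, and the 2 genes most correlated with each member. Of the genes that this rule names, 1 is not reported here. Alternatives were limma without trend, quantile normalization, median centring, no filter, a filter of 10 RPKM, a pseudocount of 1 RPKM, 1 fit of 12 libraries, a replicate block, removal of the length trend (loess, span 0.5), voom, and leaving out each library. Replicate numbers were not shown to pair the samples. Summaries and figures were made in Python 3.11.15 with pandas 2.3.3, scipy 1.17.1, numpy 2.4.6 and matplotlib 3.10.9.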

Additional observations from a re-analysis of the deposited data

Results flagged for a closer look

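*Slc9a3r1* was singled out because both p38-MAPKi libraries lay on opposite sides of both controls at different times. On the log2 scale the difference from control was 0.22 at 4 h with both libraries above control, -0.28 at 7 h with both below, and 0.11 at 10 h with both above. The test of the difference itself did not pass the threshold: the effect at 7 h minus that at 4 h was -0.50 (SE 0.25, adjusted p = 0.661 by limma), and the effect at 10 h minus that at 7 h was 0.39 (SE 0.18, adjusted p = 0.219 by limma).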

How the results depend on the processing

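Of 707 values recomputed under alternatives, 639 kept their direction and their side of the threshold, 20 passed it only in the alternative, 13 no longer passed it and 35 turned direction, and the cause was not tested. At E3.5 + 7 h the members called (1 as reported) were 0 with the length trend removed, after median centring and without the trend, and 2 with at least 10 RPKM, 12 libraries in 1 fit, the replicate block or voom, and 0 to 2 when a library was left out. In control at 10 h against 4 h (1 as reported) they were 0 without the trend, with median centring, quantile normalization, no filter, 12 libraries in 1 fit or the length trend removed, and 3 with at least 10 RPKM, the replicate block or voom, and 0 to 4 when a library was left out. For the difference of the effect at 10 h and 7 h (0 as reported) it was 1 with at least 10 RPKM or voom and 0 to 2 when a library was left out. Leaving out a library gave 0 to 1 for p38-MAPKi at 4 h (*Msn*) and for control at 10 h against 7 h (*Slc9a3r1*, without replicate 1 of control at 7 h, adjusted p = 0.0356 by limma). The replicate block changed no call of a member in the other comparisons. Same-numbered libraries correlated at -0.01 to 0.17 in their deviations from the group means, and 2 pairs do not settle a pairing.

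At 4 h *Rdx* turned direction with median centring (-0.0159), quantile normalization (-0.11) and the length trend removed (-0.0352), and *Pard3* with the last (0.12). With the length trend removed, *Pard3* (0.13) and *Prkcz* (0.10) turned at 7 h, *Pard3* at 10 h (-0.0145), and in control *Pard6b* at 7 h against 4 h (-0.0197) and *Pard6b* (-0.0095) and *Prkcz* (-0.007) at 10 h against 4 h. Median centring turned *Pard6b* in control at 7 h against 4 h (-0.0037) and voom turned *Prkcz* at 10 h against 7 h (0.0005). When libraries were left out, p38-MAPKi values ranged at 4 h from -0.32 to 0.17 for *Ezr*, -0.0615 to 0.0827 for *Rdx*, -0.44 to 0.25 for *Pard3* and -0.13 to 0.23 for *Prkcz*, at 7 h from -0.0287 to 0.25 for *Rdx* and -0.46 to 0.0101 for *Prkcz*, and at 10 h from -0.0231 to 0.0523 for *Pard3* and -0.0596 to 0.12 for *Prkcz*. In control they ranged at 7 h against 4 h from -0.0685 to 0.42 for *Ezr*, -0.0473 to 0.52 for *Pard3*, -0.0134 to 0.28 for *Prkci* and -0.0168 to 0.35 for *Prkcz*, at 10 h against 7 h from -0.18 to 0.39 for *Pard3*, -0.0344 to 0.11 for *Pard6b* and -0.0936 to 0.0882 for *Prkcz*, and at 10 h against 4 h from -0.0195 to 0.35 for *Prkcz*.

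Counts over all genes moved more. At 7 h the 233 calls (102 higher, 131 lower) became 0 to 2919 over the alternatives, with quantile normalization giving 7 higher and 5 lower, and replicate block 2023. The 98 calls at 4 h became 0 to 424, the 88 at 10 h 0 to 531, and those of control 0 to 58 from 53, 0 to 221 from 6 and 0 to 1228 from 51. Median centring shifted the median of all genes at 7 h from -0.14 to 0.05 and that of control at 10 h against 4 h from 0.14 to 0.0004. With 2 libraries a group, differences under about the spread of the pools could not be resolved.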

Other observations

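Among markers of the cell types not described above, the primitive endoderm gene *Sox17* had a log2 fold change of 0.93 in control from 4 h to 10 h (adjusted p = 0.163 by limma), at a level of 1.86 ± 0.47 RPKM at 4 h and 3.58 ± 1.14 RPKM at 10 h (SD, n = 2). *Gata6* was at -0.47 and *Pdgfra* at -0.46 with p38-MAPKi at 7 h (adjusted p = 0.143 and 0.183 by limma), close to the values of *Ezr* and *Pard3*. The epiblast gene *Nanog* had -0.32 in control from 4 h to 10 h (adjusted p = 0.195 by limma). *Sox2* was at -0.23, -0.37 and -0.19 with p38-MAPKi at 4, 7 and 10 h, and *Pou5f1* at 0.24, 0.18 and -0.10, and none of these was called.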
